A study of Mus musculus with 26 samples.

Results

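Immediate early and AP-1 transcription factor genes are described here in mouse keratinocytes with or without a functional *Pla2g4d* gene, under basal conditions and under IL17A plus TNFα. The members are 10 genes taken from a list of names, *Egr1*, *Egr2*, *Egr3*, *Fos*, *Fosb*, *Fosl1*, *Jun*, *Junb*, *Atf3* and *Ier3*, out of 56738 gene symbols in the count table. The choice used no measured threshold. All 10 had a mean normalized count above 10, the filter on low counts that left 16893 genes for testing. Primary epidermal keratinocytes were isolated from C57BL/6NJ mice aged 2 days, of which 5 were wild type (WT) and 8 lacked functional *Pla2g4d* (KO) through a CRISPR deletion in its exon 3. Cells of every mouse grew for 4 days in low-calcium medium (0.06 mM CaCl2), and they were either left under basal conditions or given IL17A and TNFα at 20 ng/ml each for 24 h. RNA of each culture was sequenced in bulk, which gave 26 libraries from 13 mice, in 4 groups: WT basal (n = 5), WT with cytokines (n = 5), KO basal (n = 8) and KO with cytokines (n = 8). Sex, litter and batch of the mice were not given, and the paper states that sex was not considered. It also states that the line was bred as homozygotes after backcrossing, so genotype and litter cannot be told apart.

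Immediate early genes are transcribed within minutes of a stimulus, because the factors that switch them on are already present in the cell. In keratinocytes, growth factor receptors and the ERK cascade activate ternary complex factors and SRF at the promoters of *Fos* and the *Egr* genes, and IL17A and TNFα signal to NF-kB and to the MAP kinases. FOS and JUN proteins pair through leucine zippers to form AP-1, which acts on genes of proliferation, differentiation, inflammation and wound repair in the epidermis, while the EGR proteins are zinc finger factors that bind GC-rich sites.

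Promoter sequence was matched by symbol for 7 of the 10 members, as RefSeq windows of 300 bases, 250 before and 50 after the gene start. The RefSeq table is given on GRCm38.p6, and each window was placed on GRCm39 by an exact match of its sequence. *Egr1*, *Egr3* and *Fosl1* are named only. The windows were searched on both strands for an AP-1 site (TGANTCA), a CRE (TGACGTCA), an EGR site (GCGNGGGCG), a CArG box, which is the SRF site, and an NF-kB site, and no match of one motif overlapped a match of another. An AP-1 site was in 0 of the 7 members with a window and in 7.81% of 32851 mouse promoter windows, or 8.97% of 27025 genes with at least 1 window. A CRE was likewise in 0 of the 7, against 1.79% of all windows and 2.03% of genes. Among the 7 members with a window, *Fosb* was the 1 with an EGR site (5.55% of all windows, 6.27% of genes). *Egr2* was the 1 of these 7 with a CArG box (1.63%, 1.81%), in 4 of its 5 windows. An NF-kB site was found in 4 members, *Egr2*, *Fos*, *Fosb* and *Ier3*, against 8.46% of all windows and 9.55% of genes. The match in *Egr2* was in 1 of its 5 windows, and the other members with a match have 1 window each. Shown are the 4 members with a window whose basal levels differed most between genotypes (*Atf3*, *Fos*, *Ier3* and *Jun*), of which *Ier3* also rose most with cytokines, and *Egr2* (the third of its 5 windows), which was lower in KO cells with cytokines. Each is the 250 bases before the start, 5′ to 3′, at chr12:85520414-85520663, plus strand for *Fos*, chr4:94940460-94940709, minus strand for *Jun*, chr1:190915531-190915780, minus strand for *Atf3*, chr17:36132355-36132604, plus strand for *Ier3* and chr10:67373449-67373698, plus strand for *Egr2*. Capitals mark an NF-kB match that begins 214 bases before the start in *Fos* and 92 bases before it in *Ier3*, and a CArG box that begins 72 bases before it in *Egr2*. A match is a run of letters and no measure of binding, and the absence of a match says only that these letters are not in the window.
Fos: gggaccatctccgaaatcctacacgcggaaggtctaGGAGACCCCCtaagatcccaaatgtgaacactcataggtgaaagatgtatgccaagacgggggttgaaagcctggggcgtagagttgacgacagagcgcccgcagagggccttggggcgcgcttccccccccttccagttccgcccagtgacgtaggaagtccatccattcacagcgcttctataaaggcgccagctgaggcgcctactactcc
Jun: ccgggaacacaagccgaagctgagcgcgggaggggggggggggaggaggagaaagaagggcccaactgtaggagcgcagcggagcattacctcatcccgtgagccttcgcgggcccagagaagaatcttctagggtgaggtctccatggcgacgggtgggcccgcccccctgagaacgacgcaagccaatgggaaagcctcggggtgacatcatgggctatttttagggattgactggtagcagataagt
Atf3: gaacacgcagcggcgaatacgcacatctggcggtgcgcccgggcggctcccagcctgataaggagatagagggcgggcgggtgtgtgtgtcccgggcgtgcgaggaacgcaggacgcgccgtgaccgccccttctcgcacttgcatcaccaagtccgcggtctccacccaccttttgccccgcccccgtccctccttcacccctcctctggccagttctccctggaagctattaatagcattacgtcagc
Ier3: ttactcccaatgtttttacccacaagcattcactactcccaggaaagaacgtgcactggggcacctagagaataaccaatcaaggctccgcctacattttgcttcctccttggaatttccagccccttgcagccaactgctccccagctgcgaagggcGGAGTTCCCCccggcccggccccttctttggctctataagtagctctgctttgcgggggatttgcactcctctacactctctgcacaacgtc
Egr2: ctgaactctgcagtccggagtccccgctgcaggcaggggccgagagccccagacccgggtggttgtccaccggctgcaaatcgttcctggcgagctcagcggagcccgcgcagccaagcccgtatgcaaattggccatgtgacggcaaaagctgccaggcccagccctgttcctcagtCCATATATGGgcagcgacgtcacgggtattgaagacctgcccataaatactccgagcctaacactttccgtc

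Sequencing depth, as the sum of counts in a library, ran from 42072745 to 63120607 for WT basal (median 55635255) and from 46393919 to 72562322 for WT with cytokines (median 57187471). For KO it ran from 45910502 to 74595457 at baseline (median 55265592) and from 42726350 to 78102858 with cytokines (median 47544479.5). Levels are given as CPM, which are counts scaled to the size of the library after TMM normalization. The keratinocyte label was checked against marker genes. *Krt5* (mean 19383 CPM over the 26 libraries) and *Krt14* (13596 CPM), keratins of basal keratinocytes, were high in every library, and *Sbsn* (613 CPM) led the 8 markers of differentiated keratinocytes. Melanocyte markers were present in every library, led by *Tyrp1* at 173 CPM. Fibroblast markers had means of at most 1.32 CPM (*Pdgfra*), and the endothelial markers *Emcn* and *Cldn5* and the Langerhans cell marker *Cd207* had a count of 0 in all 26 libraries. *Cd68* (24.4 CPM) led the immune list and *Egfl7* (2.28 CPM) the endothelial list.

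Several libraries stood apart. With cytokines, KO replicates 7 and 8 lay above the mean of their group for 10 of 10 members, and KO replicate 1 for 0 of 10. Under basal conditions KO replicate 8 was above its group mean for 10 members and KO replicate 7 for 8. The library of KO replicate 7 with cytokines was also the deepest of all, at 78102858 counts, while that of KO replicate 8 had 49008406, near the median of its group. The part of depth in these levels was not tested. WT replicate 1 lay above its group mean for 1 of 10 members with cytokines and for 1 under basal conditions. WT replicate 5 lay above it for 9 in either condition, and KO replicate 4 under basal conditions for 1. On the second principal component, the basal libraries of WT replicate 2 (71.2) and KO replicate 4 (77.4) were far from the other basal libraries, the highest of which lay at 2.06. KO replicate 8 had the highest value on this component among the libraries with cytokines, at 34.9. Results of members whose adjusted p crossed 0.1 when KO replicates 7 and 8 were left out are given below with and without both mice, an alternative chosen after their values were seen. Both mice were left out for their levels of these same members, so that choice itself narrows the spread. The SE, p and calls of those fits show dependence on both mice and are no separate evidence of an effect.

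*Pla2g4d*, the targeted gene, encodes a cytosolic phospholipase A2 (chr2:120096076-120119678 of GRCm39, minus strand). Its level was 1.22, 4.41, 3.14, 3.34 and 4.63 CPM in WT basal replicates 1 to 5, and 28.6, 65.2, 47.1, 57.2 and 62.9 CPM in the same mice with cytokines. In KO cells it ran from 1.15 to 2.98 CPM (median 2.10) under basal conditions and from 29.2 to 59.2 CPM (median 36.2) with cytokines. WT replicate 1 was the lowest WT library in both conditions, the genotypes overlapped, and every library with cytokines lay far above every basal one. The basal difference between KO and WT cells had a log2 fold change of -0.70 (SE 0.26, adjusted p = 0.0935, edgeR's quasi-likelihood test), and 4 of 5 WT libraries lay above every KO library. This call ended when any 1 of WT replicates 2 to 5 or KO replicates 1 to 6 was left out (adjusted p between 0.102 and 0.274), with only the groups compared (0.199) and with limma (0.149). With cytokines the log2 fold change was -0.45 (adjusted p = 0.345). It was called without WT replicate 1 (-0.60, adjusted p = 0.0357) and with replicate number as a block (-0.61, adjusted p = 0.0246). The counts are per gene and include exons outside the deletion, so they check nothing about the deletion itself.

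**Figure D1:**
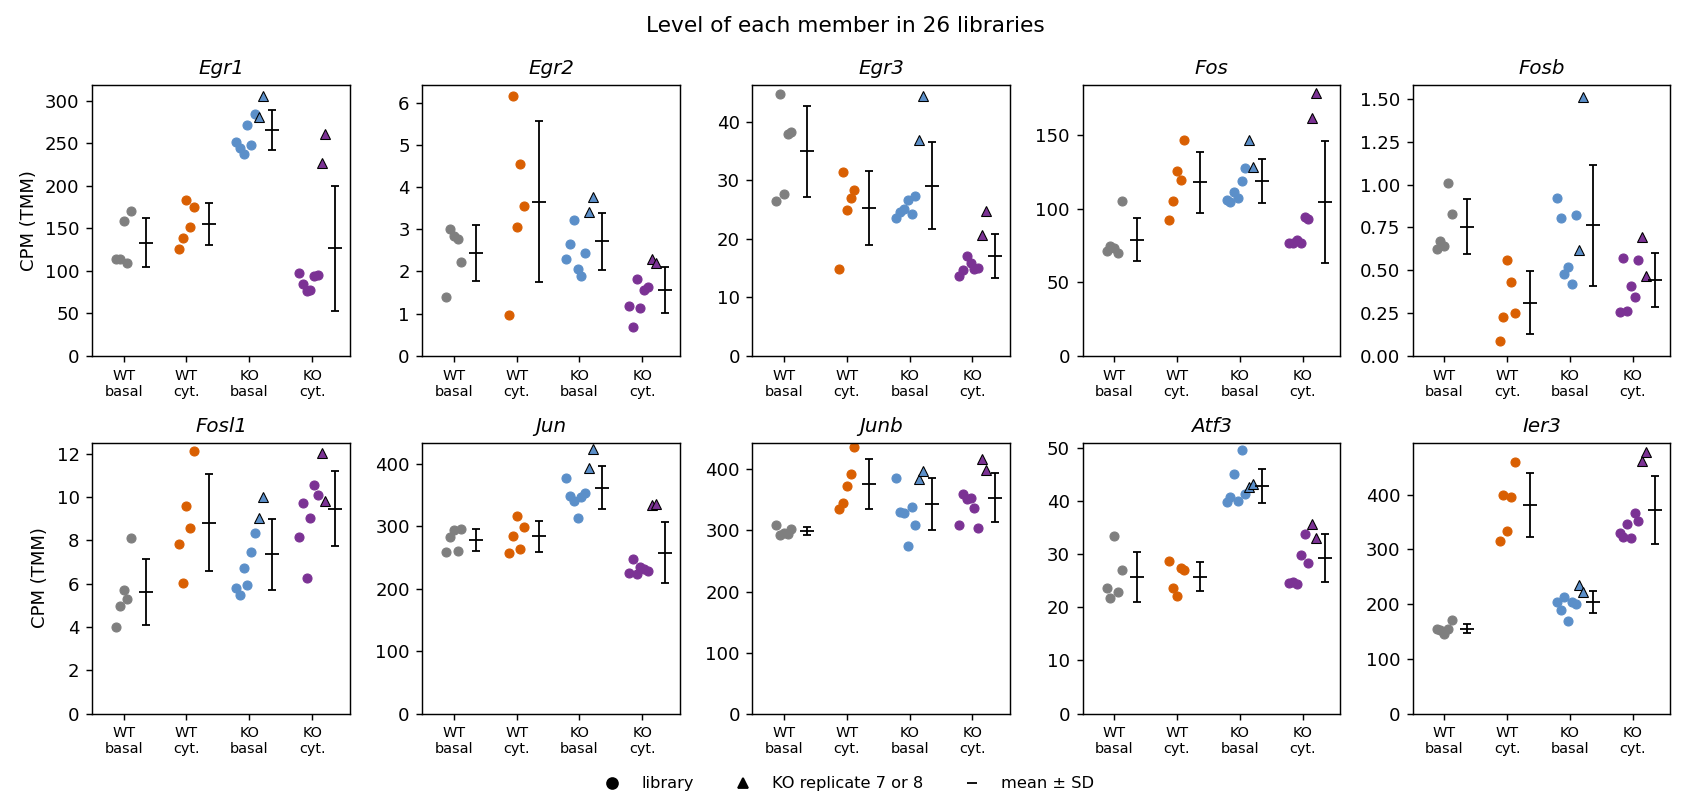
Level of each member in CPM (y axis, from 0) in every library of the 4 groups, with the mean and SD of each group beside the points and KO replicates 7 and 8 as triangles. Basal KO libraries lie above all WT basal libraries for *Egr1*, *Jun* and *Atf3*, and with cytokines the triangles of *Egr1*, *Fos* and *Jun* lie apart from the other 6 KO libraries.

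Compared per kilobase of exon, *Ier3*, *Junb* and *Jun* were the highest members in all 4 groups, in that order. In WT basal cells *Ier3* was at 136 ± 7.92 CPM per kb (SD, n = 5), *Junb* at 126 ± 2.84 and *Jun* at 87.4 ± 5.65. *Fos* (33.5 ± 6.24) and *Egr1* (29.6 ± 6.45) followed and did not differ beyond their spread. *Atf3* (10.6 ± 1.93), *Egr3* (7.43 ± 1.65) and *Fosl1* (2.77 ± 0.755) were lower, and *Egr2* (0.718 ± 0.193) and *Fosb* (0.121 ± 0.0259) were lowest in every group. The order of *Fos* and *Egr1* was the other way round in KO basal cells, at 59.0 ± 5.26 CPM per kb for *Egr1* (SD, n = 8) and 50.4 ± 6.27 for *Fos*. *Fosl1* stood above *Egr3* in KO cells with cytokines only (4.66 ± 0.850 against 3.63 ± 0.799 CPM per kb). Other annotated genes overlap *Egr2*, *Fosl1*, *Jun*, *Junb*, *Atf3* and *Ier3* on the opposite strand (*Junos* for *Jun*, *Prdx2* for *Junb* and *Ccdc85b* for *Fosl1* among them) and none on the same strand, and the strand setting of the counting was not given.

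The study asks how loss of *Pla2g4d* changes keratinocytes at rest and under psoriasis-like cytokines, and the design gives 5 comparisons: the cytokine effect in WT cells, the cytokine effect in KO cells, KO against WT under basal conditions, KO against WT with cytokines, and the interaction, which is the cytokine effect in KO minus that in WT cells. They share groups with one another, so their values are given side by side and are not independent. Libraries were made at 24 h only, so that a brief early rise was not sampled. A gene was called when its Benjamini-Hochberg adjusted p over all 16893 genes was under 0.1 and its fold change over 1.5. In WT cells 2 of 10 members were called higher with cytokines, *Fosl1* and *Ier3*, where 8.65% of all genes were, and 1 was called lower, *Fosb*, where 5.26% were. In KO cells 1 was called higher, *Ier3*, against 6.33% of all genes, and 4 were called lower, *Egr1*, *Egr2*, *Egr3* and *Fosb*, against 4.55%. Under basal conditions 3 members were called higher in KO cells, *Egr1*, *Fos* and *Atf3*, against 1.61% of all genes. Lower calls in this comparison were 0 of 10, against 1.07%, by edgeR and by DESeq2, and all 7 members with an unadjusted p under 0.05 (22.4% of all genes, 11.7% higher) were higher. With cytokines 1 member was called lower in KO cells, *Egr2*, against 0.556% of all genes. In all, 119 genes were called in this comparison, and from 44 to 558 when single mice were left out. Higher calls there were 0 of 10, against 0.148%, and the 2 members with an unadjusted p under 0.05 in edgeR's test (15.0% of all genes), *Egr2* and *Egr3*, were both lower. DESeq2 made 1 call in this comparison and limma 0. The interaction was called as lower for 1 member, *Egr1*, against 0.184% of all genes, and as higher for 0, against 0.0355%. Of the 7 members with an unadjusted p under 0.05 for the interaction (9.13% of all genes) all had a lower value in KO cells, and DESeq2 called 2 members. This model has no term for the mouse. With the mouse as a block the interaction had an adjusted p under 0.1 for 6 members, *Egr1*, *Egr2*, *Fos*, *Jun*, *Atf3* and *Ier3*, of which the first 3 passed the limit on the fold change, as did 80 of all genes tested.

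Without KO replicates 7 and 8 the members called were different in 4 of the 5 comparisons. Both mice were picked by their levels of these members, so the counts that follow are no test against the shares of all genes. *Atf3* was then called lower with cytokines in KO cells and *Fosb* was not, so that 4 members were called lower, against 4.16% of all genes, and *Ier3* was still called higher. Under basal conditions 2 members, *Egr1* and *Atf3*, were called higher in KO cells (1.97% of all genes). With cytokines all 3 *Egr* genes were called lower in KO cells (1.64% of all genes). The interaction was called as lower for 4 members, *Egr1*, *Fos*, *Jun* and *Atf3* (0.308% of all genes).

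Over the 10 members the median log2 fold change was 0.27 for cytokines in WT cells and -0.52 in KO cells, beside medians of 0.01 and 0.00 over all genes tested. It was 0.38 between genotypes under basal conditions, where 9 of 10 members were positive, and -0.11 with cytokines, where 7 were negative, beside 0.00 and -0.01 over all genes. For the interaction the median was -0.47, with 9 of 10 members negative, against -0.01. When KO replicates 7 and 8 were left out, the medians were 0.26 and -0.61 for cytokines in WT and KO cells, 0.27 between genotypes under basal conditions with 7 of 10 members positive, -0.22 with cytokines with 7 negative, and -0.54 for the interaction with 9 negative. Over all genes they were then between 0.00 and 0.01.

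**Figure D2:**
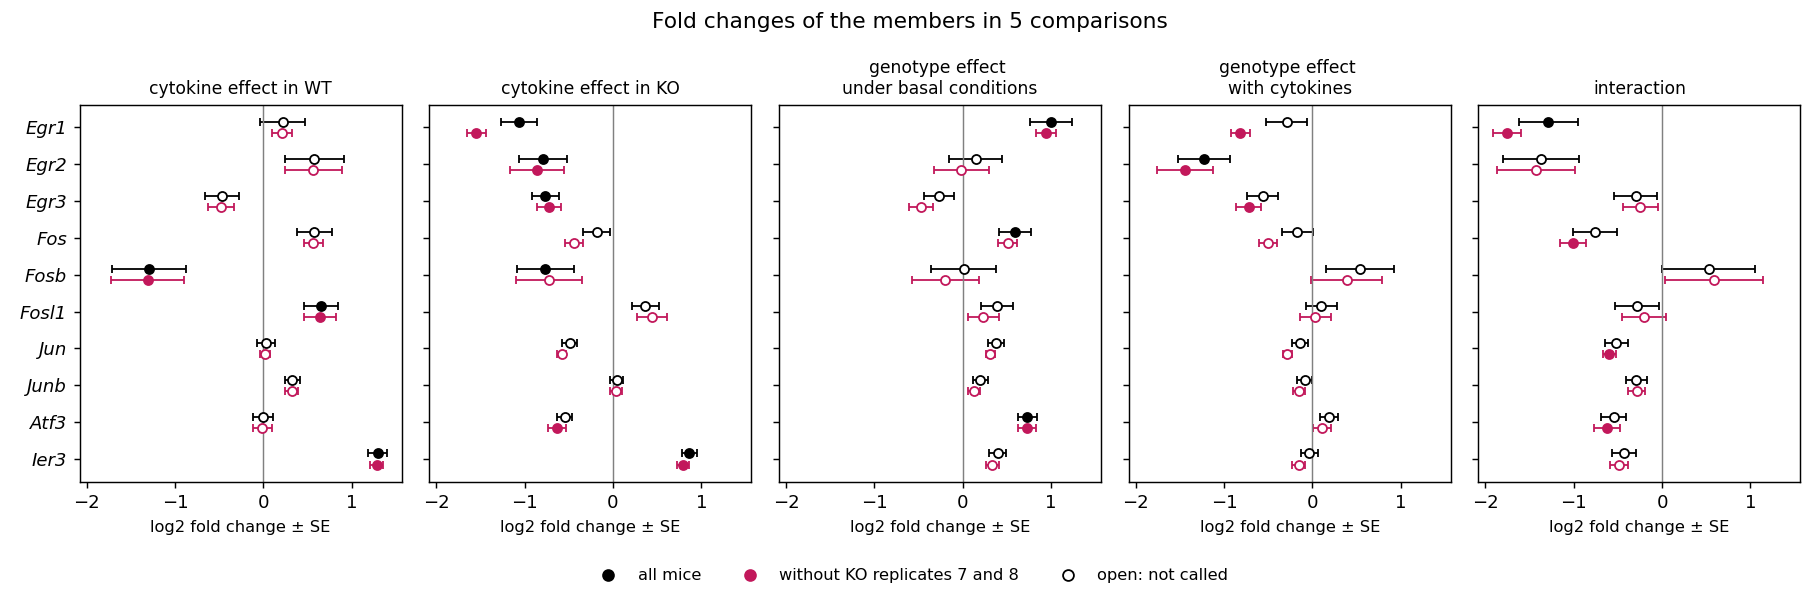
Log2 fold change of each member (x axis, with its standard error) in the 5 comparisons, fitted with all mice in black and without KO replicates 7 and 8 in magenta, where open circles were not called. The interaction of *Egr1* moves from -1.29 to -1.76 and that of *Fos* from -0.76 to -1.01 without both mice, while *Ier3* keeps its cytokine calls in both fits.

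*Egr1* encodes a zinc finger activator that serves as a readout of ERK signalling (ENSMUSG00000038418, chr18:34992876-34998049 of GRCm39, plus strand). WT basal replicates 1 to 5 had 114, 114, 158, 109 and 170.3 CPM, and the same mice had 125, 139, 184, 152 and 175 CPM with cytokines. KO basal libraries had 238 to 306 CPM (median 261), and KO libraries with cytokines had 76.1 to 261 CPM (median 94.3). All 8 KO basal libraries lay above all 10 WT libraries of both conditions, and no other member showed this for all its libraries except *Atf3*. With cytokines the KO group was split: replicates 1 to 6 had 97.7 CPM or less, below every WT library, whereas replicates 7 and 8 had 227 and 261 CPM, above every WT library. Within mice, *Egr1* rose in 5 of 5 WT mice, by 0.04 to 0.48 on the log2 scale, and changed downward in 8 of 8 KO mice. The change was between -1.36 and -1.80 in KO mice 1 to 6 but -0.30 in KO mouse 7 and -0.23 in KO mouse 8.

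The basal difference of *Egr1* between KO and WT cells was a log2 fold change of 0.997 (SE 0.24, adjusted p = 0.00692). The cytokine effect was -1.07 in KO cells (SE 0.21, adjusted p = 1.44e-04) and 0.22 in WT cells (SE 0.26, adjusted p = 0.576). The interaction was -1.29 (SE 0.33, adjusted p = 0.0717), and -1.47 with the mouse as a block (adjusted p = 8.42e-04). The call without the block ended when any 1 of WT replicates 2 to 5 or KO replicates 1 to 6 was left out, with adjusted p between 0.1085 and 0.241 and log2 values between -1.20 and -1.34. Without KO replicates 7 and 8 together the interaction was -1.76 (SE 0.16, adjusted p = 5.61e-07) and the cytokine effect in KO cells was -1.55. The small SE and p of that fit follow in part from leaving out mice for their levels of the members. With cytokines *Egr1* did not pass the threshold between genotypes (-0.29, adjusted p = 0.612). It did without KO replicates 7 and 8 (-0.81, adjusted p = 1.35e-04), and with replicate number as a block (-0.67, adjusted p = 0.0141). For genotype this block joins different mice, and blocks 6 to 8 hold KO mice only. The level of KO replicates 7 and 8 is thus largely taken up by their own blocks, here and below. Both fits are therefore not separate support. In bulk RNA, fewer cells that express a gene and less RNA per cell cannot be told apart, here and for every member below.

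*Egr2* encodes the zinc finger factor KROX20 (ENSMUSG00000037868, chr10:67371305-67378018). It was among the least abundant members, with 1.39, 3.003, 2.83, 2.77 and 2.22 CPM in WT basal replicates 1 to 5 and 0.960, 6.15, 3.06, 4.55 and 3.56 CPM in the same mice with cytokines. KO libraries ran from 1.89 to 3.76 CPM (median 2.53) under basal conditions and from 0.692 to 2.29 CPM (median 1.59) with cytokines. WT replicate 1 was the lowest WT library in both conditions, and it alone lay inside the range of the KO libraries with cytokines. The level was lower with cytokines in 8 of 8 KO mice and higher in 4 of 5 WT mice. With cytokines the difference between KO and WT cells was -1.22 on the log2 scale (SE 0.30, adjusted p = 0.0391). The call ended without WT replicate 2 (-0.95, adjusted p = 0.175), without WT replicate 4 (-1.13, adjusted p = 0.136) and with limma on the deposited log2 values (-1.08, adjusted p = 0.1005). It was -1.44 (adjusted p = 0.00936) without KO replicates 7 and 8. The cytokine effect was -0.79 in KO cells (SE 0.27, adjusted p = 0.0244) and 0.58 in WT cells (SE 0.33, adjusted p = 0.201), where it was called without WT replicate 1 (0.67, adjusted p = 0.0776). These effects were not shown to differ in the model used (interaction -1.37, SE 0.43, adjusted p = 0.201). The interaction was called with the mouse as a block (-1.25, adjusted p = 0.0404), with DESeq2 (-1.37, adjusted p = 0.0712) and without WT replicate 1 (-1.46, adjusted p = 0.0374).

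*Egr3* encodes the third zinc finger factor of the family among the members (ENSMUSG00000033730, chr14:70314350-70320063). Its levels were 26.5, 44.8, 27.6, 37.9 and 38.3 CPM in WT basal replicates 1 to 5 and 14.9, 31.5, 24.9, 26.9 and 28.4 CPM with cytokines. In KO cells it ran from 23.6 to 44.4 CPM (median 25.9) under basal conditions and from 13.7 to 24.8 CPM (median 15.5) with cytokines. The groups overlapped in each comparison, and KO replicates 7 and 8 were the 2 highest KO libraries in both conditions. *Egr3* was lower with cytokines in all 13 mice. The cytokine effect was -0.77 in KO cells (SE 0.15, adjusted p = 2.54e-04) and -0.47 in WT cells (SE 0.19, adjusted p = 0.0675), where it was under the limit on the fold change. The effects were not shown to differ (interaction -0.30, adjusted p = 0.797, or 0.184 with the mouse as a block). Under basal conditions the difference between KO and WT cells was -0.27 (adjusted p = 0.393), and -0.47 without KO replicates 7 and 8 (adjusted p = 0.0254), under the limit on the fold change. Between genotypes with cytokines the log2 fold change of -0.56 (SE 0.17) had an adjusted p of 0.102. This difference was called without WT replicate 1 (-0.70, adjusted p = 0.00675), without KO replicate 7 (-0.61, adjusted p = 0.0916), without KO replicate 8 (-0.65, adjusted p = 0.0154), without both of the latter (-0.72, adjusted p = 0.00408) and with replicate number as a block (-0.72, adjusted p = 1.87e-04).

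**Figure D3:**
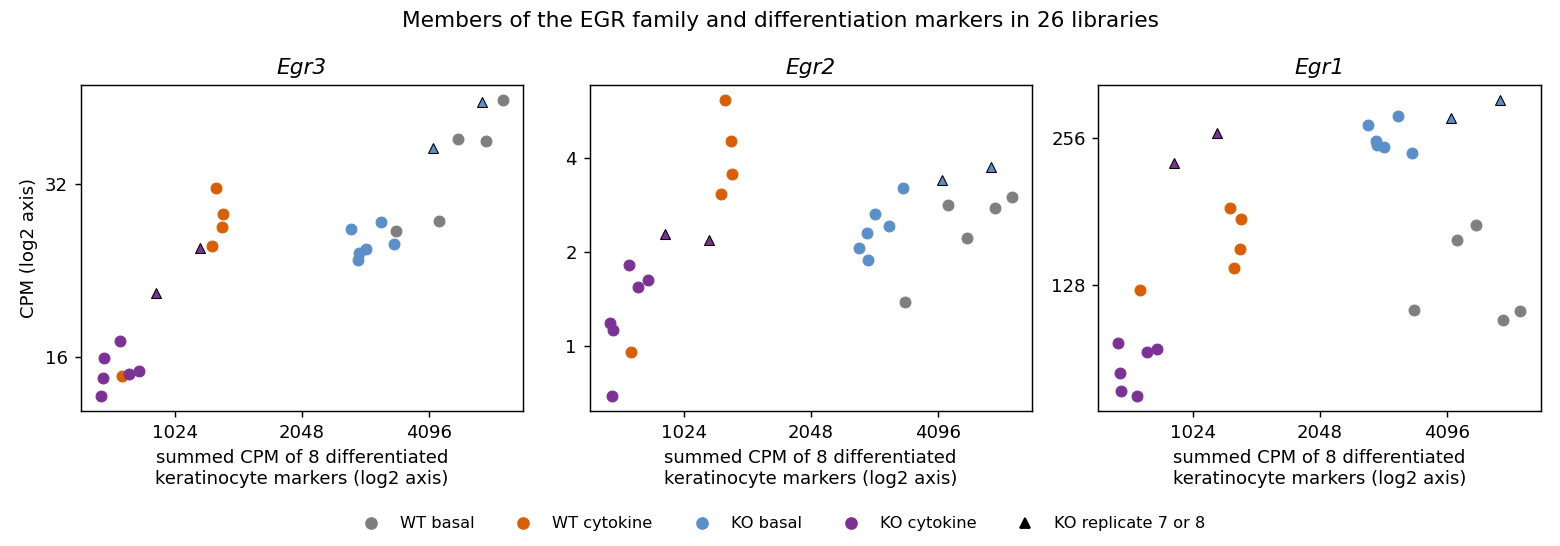
Level of *Egr3*, *Egr2* and *Egr1* (CPM, log2 axis) against the summed CPM of 8 markers of differentiated keratinocytes (log2 axis), with 1 point per library, colours for the 4 groups and triangles for KO replicates 7 and 8. *Egr3* follows the marker sum within groups most closely, and WT replicate 1 with cytokines (*Egr3* 14.9 CPM) lies among the KO libraries with cytokines.

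Markers of differentiated keratinocytes moved with treatment and, within groups, with most members. The summed level of the 8 markers was 3418, 6122, 4334, 5581 and 4808 CPM in WT basal replicates 1 to 5 and 769, 1281, 1252, 1324 and 1334 CPM with cytokines. In KO cells it ran from 2671 to 5475 CPM (median 3025) under basal conditions and from 683 to 1173 CPM (median 777) with cytokines. The highest KO library was replicate 8 in both conditions, and WT replicate 1 was the lowest WT library in both. Of the 8 markers 7 were called lower with cytokines in either genotype (5.26% of all genes in WT and 4.55% in KO cells), 2 were called lower in KO cells under basal conditions (1.07%) and 5 with cytokines (0.556%), and none had a count of 0 in any library. After group means were subtracted, Pearson r between the member and the log2 marker sum over the 26 libraries was 0.93 for *Egr3*, 0.79 for *Egr2*, 0.69 for *Ier3*, 0.64 for *Jun*, 0.62 for *Fos*, 0.57 for *Fosb*, 0.52 for *Junb*, 0.49 for *Fosl1*, 0.49 for *Egr1* and 0.06 for *Atf3*. Over the 22 libraries without KO replicates 7 and 8, r was 0.85, 0.82, 0.55, 0.31, 0.47, 0.51, 0.14, 0.28, 0.18 and -0.19 in the same order. These are descriptions chosen after the data were seen, and the points share mice in pairs. The 8 melanocyte markers had summed levels of 453 to 641 CPM in WT basal cells and 351 to 502 CPM in WT cells with cytokines, and of 492 to 659 and 326 to 428 CPM in KO cells. Of these markers 2 were called lower with cytokines in WT (5.26% of all genes) and 4 in KO cells (4.55%). With cytokines *Pmel* (-0.57, adjusted p = 0.0168), *Dct* (-0.47, adjusted p = 0.0168), *Tyr* (-0.43, adjusted p = 0.0259) and *Mlana* (-0.38, adjusted p = 0.0923) were lower in KO than in WT cells, all under the limit on the fold change. The melanocyte sum had r of 0.72 with *Egr3* and 0.63 with *Egr2*, or 0.73 and 0.62 without both mice. The immune list had sums from 18.8 to 54.7 CPM, highest in KO replicate 8 with cytokines, with *Cd207* at 0 throughout, and *Cd68* was called higher with cytokines in WT cells (0.75, adjusted p = 5.38e-04) and had 0.48 in KO cells (adjusted p = 0.00414). The endothelial list had sums from 3.83 to 10.1 CPM, with *Emcn* and *Cldn5* at 0. Its marker *Pecam1* (mean 1.89 CPM) was called higher in KO basal cells (0.95, adjusted p = 0.0195), and with cytokines in WT (1.68, adjusted p = 2.75e-05) and KO cells (0.59, adjusted p = 0.0418), with an interaction of -1.09 (adjusted p = 0.238). *Kdr* was also called higher with cytokines in WT (0.87) and KO cells (0.99), whereas *Vwf* was called lower in both (-0.97 and -0.77). For the immune sum r was 0.74 with *Egr3*, 0.74 with *Ier3* and 0.69 with *Fos*, or 0.52, 0.49 and 0.38 without both mice. The part of any of these cells in the levels of the members was not tested.

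*Fos* encodes the founding FOS protein, which binds DNA only as a dimer with a JUN protein (ENSMUSG00000021250, chr12:85520658-85524047). It had 71.6, 74.8, 73.5, 69.9 and 105 CPM in WT basal replicates 1 to 5 and 92.1, 105, 126, 119.8 and 147 CPM in the same mice with cytokines. KO libraries had 104 to 147 CPM (median 115) under basal conditions and 76.5 to 178 CPM (median 86.0) with cytokines. WT replicate 5 stood apart under basal conditions and was the 1 WT basal library that reached the KO range. With cytokines KO replicates 1 to 6 had 94.2 CPM or less, whereas replicates 7 and 8 had 162 and 178 CPM, above all WT libraries. *Fos* rose with cytokines in 5 of 5 WT mice, by 0.36 to 0.78 on the log2 scale, and it also rose in KO mice 7 (0.14) and 8 (0.47). It changed by -0.33 to -0.49 in the other 6 KO mice.

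Between genotypes under basal conditions *Fos* had a log2 fold change of 0.59 (SE 0.18, adjusted p = 0.0350), just over the limit on the fold change. It was under that limit without WT replicate 1 (0.55), 2 (0.57) or 3 (0.57), without KO replicate 6 (0.57), 7 (0.54) or 8 (0.57), without KO replicates 7 and 8 together (0.51), with replicate number as a block (0.40) and with no filter on low counts (0.58). Without WT replicate 4 (0.55) the adjusted p was also over 0.1 (0.107). In WT cells the fold change of *Fos* with cytokines was 1.495, or 0.58 on the log2 scale (SE 0.20, adjusted p = 0.0237), which missed the limit of 1.5. It passed without WT replicate 1 (0.61), 2 (0.60) or 5 (0.61). In KO cells the cytokine effect was -0.18 (adjusted p = 0.425), and without KO replicates 7 and 8 it was -0.44 (adjusted p = 0.00139), still under the limit on the fold change. Between genotypes with cytokines *Fos* had -0.17 (adjusted p = 0.718), and -0.50 without both mice (adjusted p = 0.00636), also under that limit. The interaction of -0.76 (SE 0.25) had an adjusted p of 0.243. It was called without KO replicate 8 (-0.89, adjusted p = 0.0454), without KO replicates 7 and 8 (-1.01, adjusted p = 5.05e-04) and with the mouse as a block (-0.84, adjusted p = 0.00225).

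*Jun* encodes c-JUN, the main activating partner of FOS in AP-1 (ENSMUSG00000052684, chr4:94937271-94940459). It had 258, 284, 294, 261 and 296 CPM in WT basal replicates 1 to 5 and 257, 284, 317, 263 and 298 CPM with cytokines. KO libraries had 314 to 424 CPM (median 352) under basal conditions and 224 to 336 CPM (median 234) with cytokines. The WT libraries of both conditions lay together. The KO basal libraries were all above the WT basal ones, and with cytokines KO replicates 1 to 6 (at most 247 CPM) fell below every WT library while replicates 7 and 8 (335 and 336 CPM) stood above them. The basal difference between genotypes was 0.38 on the log2 scale (SE 0.09, adjusted p = 0.00853), and the cytokine effect in KO cells was -0.49 (SE 0.08, adjusted p = 1.96e-05), lower in 8 of 8 mice. Both were under the limit on the fold change. In WT cells the cytokine effect was 0.03 (adjusted p = 0.875), and the interaction was -0.52 (SE 0.13, adjusted p = 0.0672), or -0.53 with the mouse as a block (adjusted p = 5.35e-04), also under that limit. Between genotypes with cytokines *Jun* had -0.14 (adjusted p = 0.518). In the fit without KO replicates 7 and 8 this was -0.28 (adjusted p = 0.00373), under the limit, and the interaction was called (-0.60, adjusted p = 9.45e-05).

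*Atf3* encodes a stress-induced leucine zipper factor that pairs with JUN proteins and can repress transcription (ENSMUSG00000026628, chr1:190902493-190950241). It had 23.7, 21.8, 33.4, 22.8 and 27.1 CPM in WT basal replicates 1 to 5 and 28.7, 23.6, 22.2, 27.4 and 27.0 CPM with cytokines. KO libraries had 39.9 to 49.6 CPM (median 41.97) under basal conditions and 24.4 to 35.7 CPM (median 29.1) with cytokines. All KO basal libraries lay above every library of the other 3 groups, and the remaining groups overlapped one another. Between genotypes under basal conditions the log2 fold change was 0.73 (SE 0.10, adjusted p = 1.79e-05), and it was also 0.73 without KO replicates 7 and 8 (adjusted p = 3.86e-05). *Egr1*, *Jun* and *Atf3* were thus the 3 of 10 members for which KO and WT basal libraries did not overlap, as was so in this direction for 1.91% of all genes. The cytokine effect on *Atf3* was -0.55 in KO cells (SE 0.09, adjusted p = 1.30e-05), lower in 8 of 8 mice but under the limit on the fold change, and 0.00 in WT cells (adjusted p = 0.996). In KO cells it was called without KO replicate 7 (-0.59) and without KO replicates 7 and 8 (-0.63). The interaction was -0.55 (SE 0.14, adjusted p = 0.0771), or -0.57 with the mouse as a block (adjusted p = 0.0252), both under the same limit. It was called without WT replicate 3 (-0.71, adjusted p = 0.0142), without KO replicate 7 (-0.60, adjusted p = 0.0575) and without KO replicates 7 and 8 (-0.62, adjusted p = 0.0418). WT replicate 3 had the highest WT basal level and the largest downward change of a WT mouse (-0.59).

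**Figure D4:**
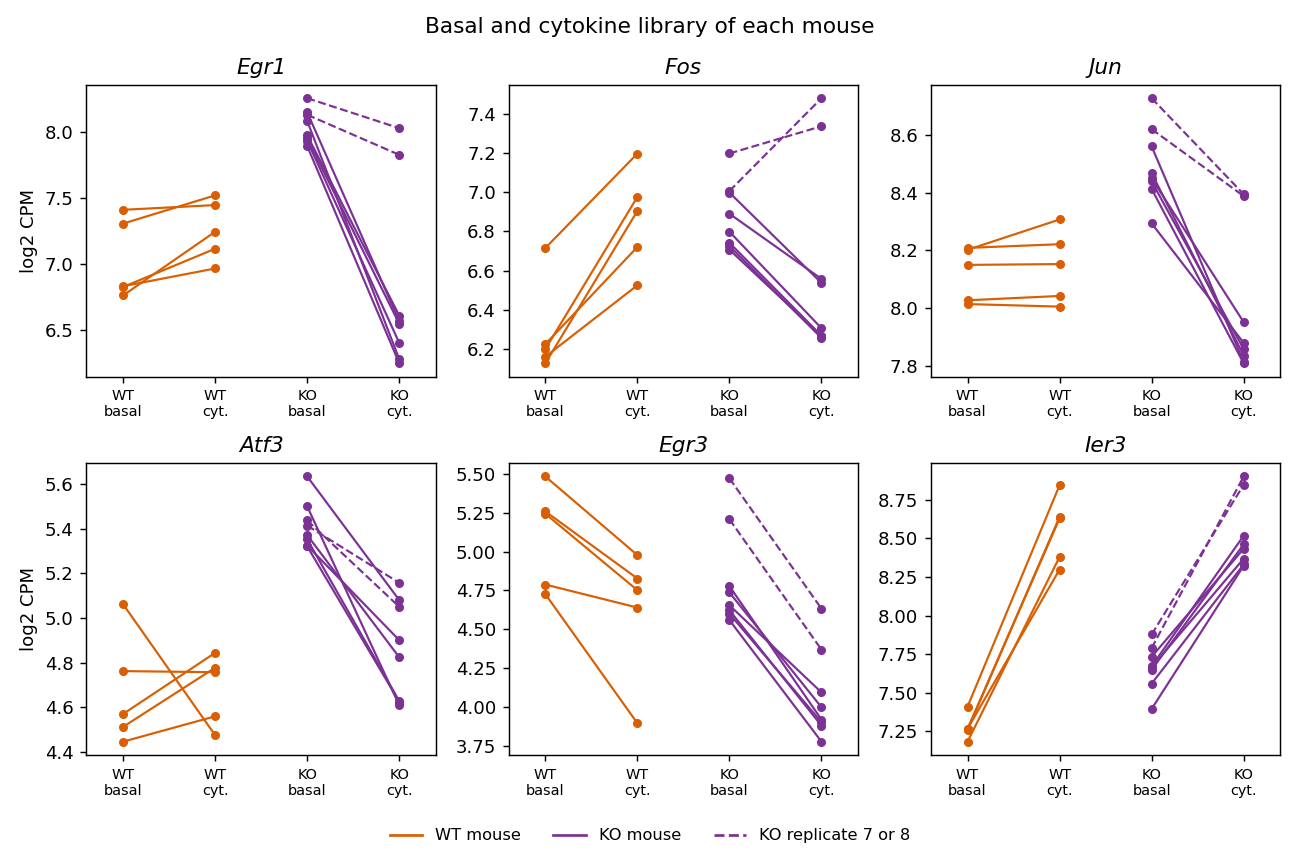
Log2 CPM of 6 members in the basal and the cytokine library of each mouse, joined by a line, for 5 WT and 8 KO mice, with KO mice 7 and 8 dashed. *Egr1*, *Jun*, *Atf3* and *Egr3* go down in all 8 KO mice and *Ier3* goes up in all 13 mice, while *Fos* goes up in the WT mice and in KO mice 7 and 8.

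*Fosb*, a FOS protein of short-lived induction (ENSMUSG00000003545, chr7:19036621-19043976), was the least abundant member. Its levels were 0.6249 to 1.01 CPM in WT basal cells and 0.0847 to 0.557 CPM in WT cells with cytokines. These did not overlap, as was so in this direction for 9.99% of all genes. Counts in WT replicates 1 to 5 with cytokines were only 6, 16, 28, 20 and 14. In KO cells the levels were 0.420 to 1.51 and 0.255 to 0.696 CPM, and the highest basal library was replicate 8. *Fosb* was lower with cytokines in 5 of 5 WT mice and 7 of 8 KO mice, with log2 fold changes of -1.30 in WT (SE 0.42, adjusted p = 0.0184) and -0.77 in KO cells (SE 0.33, adjusted p = 0.0769). The call in KO cells ended without KO replicate 1 (adjusted p = 0.192), 3 (0.107), 6 (0.103) or 8 (0.240), without KO replicates 7 and 8 (0.180), with the mouse as a block (0.116) and with no filter on low counts (0.143). Between genotypes under basal conditions the value was 0.01 and its sign turned with several alternatives.

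*Fosl1* encodes FRA-1, a FOS-related protein without the activation domain of FOS, which is linked to migrating keratinocytes (ENSMUSG00000024912, chr19:5497575-5505974). Its levels were 4.01 to 8.13 CPM in WT basal cells and 6.05 to 12.1 CPM with cytokines, and 5.47 to 9.99 and 6.24 to 12.1 CPM in KO cells, with overlap in each comparison. It rose with cytokines in 5 of 5 WT mice, with a log2 fold change of 0.65 (SE 0.20, adjusted p = 0.0109), and in 6 of 8 KO mice, with 0.37 (adjusted p = 0.0715). These effects were not shown to differ (interaction -0.28, adjusted p = 0.812, or 0.534 with the mouse as a block). The WT value was under the limit on the fold change without WT replicate 1 (0.58, adjusted p = 0.0368), a mouse with the lowest basal level.

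*Junb* encodes a JUN protein that restrains proliferation in many settings and whose loss in mouse epidermis, together with c-JUN, gives a psoriasis-like disease (ENSMUSG00000052837, chr8:85701113-85705359). WT basal libraries lay closely together at 293 to 309 CPM, and the WT libraries with cytokines, at 335 to 436 CPM, were all above them. The same separation was seen for 10.5% of all genes. In KO cells the ranges of 274 to 397 CPM under basal conditions and 303 to 417 CPM with cytokines overlapped. The cytokine effect was 0.33 in WT (SE 0.09, adjusted p = 0.00497) and 0.04 in KO cells (adjusted p = 0.729), neither of them over the limit on the fold change, and the interaction was -0.29 (adjusted p = 0.378, or 0.120 with the mouse as a block). *Junb* rose in 5 of 5 WT mice and 5 of 8 KO mice.

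*Ier3* encodes an early response protein that modulates ERK signalling and cell death and is a target of NF-kB (ENSMUSG00000003541, chr17:36132568-36133815). It had 154, 153, 145, 154 and 170.0 CPM in WT basal replicates 1 to 5 and 315, 399, 333, 396 and 459.9 CPM with cytokines. KO libraries had 168 to 235 CPM (median 203) under basal conditions and 320.3 to 478 CPM (median 349) with cytokines. Cytokine libraries lay above all basal libraries in both genotypes, as was so within WT for 10.5% and within KO for 6.52% of all genes. Of the KO basal libraries 7 of 8 lay above every WT basal library. The cytokine effect was 1.29 in WT (SE 0.11, adjusted p = 1.04e-10) and 0.87 in KO cells (SE 0.08, adjusted p = 2.15e-09), a rise in 13 of 13 mice. Every WT mouse but replicate 1 (1.03) had a larger rise than every KO mouse (0.70 to 1.11). The interaction of -0.43 (SE 0.14) had an adjusted p of 0.217. With the mouse as a block it was also -0.43 (SE 0.08, adjusted p = 0.00392), and without KO replicates 7 and 8 it was -0.49 (adjusted p = 0.0174), each under the limit on the fold change. The basal difference between genotypes was 0.39 (SE 0.10, adjusted p = 0.00833), under the limit on the fold change.

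**Figure D5:**
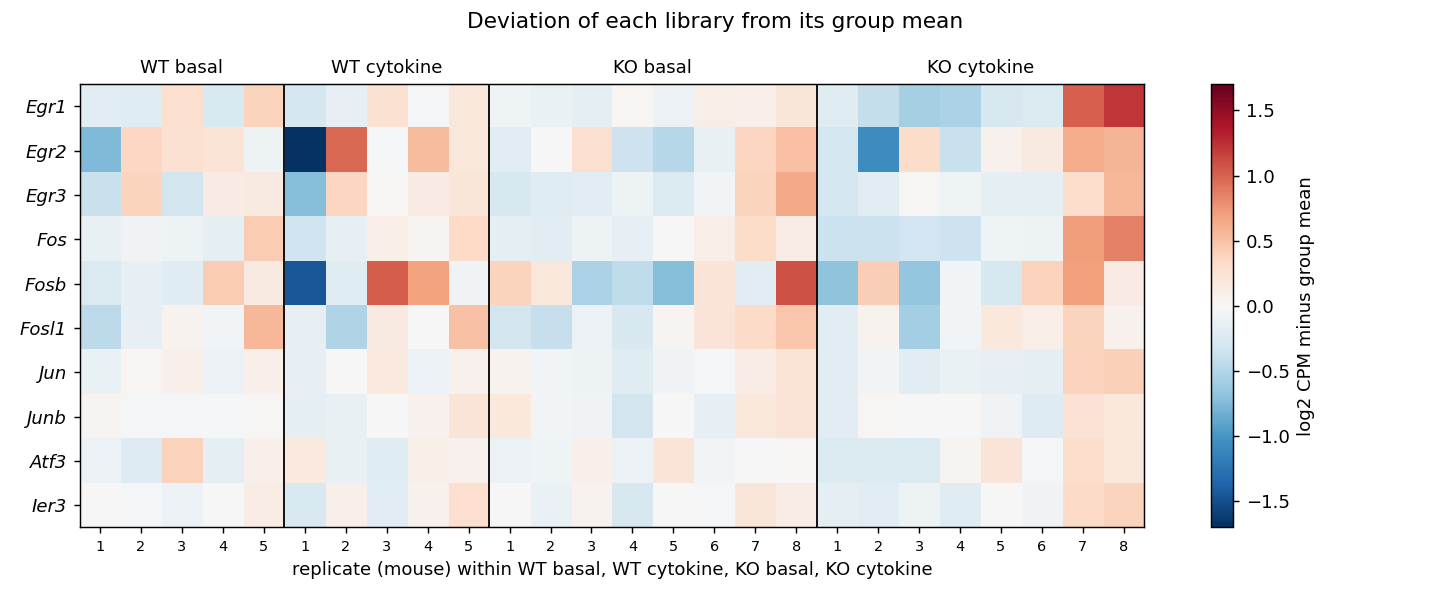
Log2 CPM of each member (rows) minus the mean of its group, in the 26 libraries (columns, by group and replicate), with red above and blue below the mean. The columns of KO replicates 7 and 8 with cytokines are red for all 10 members, and that of WT replicate 1 with cytokines is blue for 9.

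Co-variation of the members across libraries of the same group depended in part on KO replicates 7 and 8. Over the 45 pairs of members, with group means subtracted, the median Pearson r over 26 libraries was 0.49 and 43 pairs were over 0, from -0.10 (*Fosb* and *Atf3*) to 0.92 (*Egr1* and *Fos*). Without KO replicates 7 and 8 the median r was 0.28 and 39 pairs were over 0, over 22 libraries, with a lowest r of -0.38. *Egr1* and *Fos* then had r of 0.73, and the highest pair was *Fos* and *Fosl1* at 0.79. *Egr2* and *Egr3* had r of 0.77 with all libraries and 0.76 without both mice. The 26 libraries are 13 mice with 2 libraries each, so r is a description only, and it was not computed for pairs of all genes.

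Of all tested genes outside the members, up to 3 with the highest r are named for each member. Other members were left out of this ranking, and some of them had a higher r than the genes named. *Egr1* was closest to *Ccn1* (r = 0.87 over 26 libraries, 0.74 over 22 without KO replicates 7 and 8), *Klf6* (0.87, 0.78) and *Plk2* (0.85, 0.71). *Fos* was closest to *Klf6* (0.92, 0.82), *Plk2* (0.92, 0.85) and *Ppp1r15a* (0.91, 0.74). For *Jun* the nearest was *Ier2* (0.88, 0.72), and its other neighbours depended more on both mice, with *H1f2* at 0.86 and 0.46 and *Myc* at 0.84 and 0.54. *Ier3* was nearest to *Ppp1r15a* (0.86, 0.70), *Sptlc2* (0.84, 0.80) and *Zfp36* (0.84, 0.64). Highest for the other *Egr* genes were *Lce1a1* (0.90, 0.90), *Lce1b* (0.89, 0.90) and *2310050C09Rik* (0.88, 0.88) for *Egr2* and *Il36rn* (0.98, 0.96), *Sdr9c7* (0.97, 0.95) and *Nccrp1* (0.97, 0.96) for *Egr3*. *Fosl1* was nearest to *Mat2a* (0.84, 0.85) and *Epgn* (0.84, 0.84). *Junb* was nearest to *Fam83h* (0.89, 0.88), *Rnf126* (0.87, 0.87) and *Ppp1r13l* (0.85, 0.83). For *Fosb* the nearest were *Def8* (0.74, 0.66), *Krt10* (0.73, 0.74) and *Sprr2a2* (0.72, 0.68), and for *Atf3* they were *Bcl7b* (0.74, 0.71), *Ccdc163* (0.68, 0.64) and *Stbd1* (0.66, 0.66).

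*Fosl2*, which encodes FRA-2, had 439, 502, 462, 502 and 476 CPM in WT basal replicates 1 to 5 and 491, 584, 550.3, 557 and 545 CPM with cytokines, a log2 fold change of 0.20 (SE 0.05, adjusted p = 0.00459) with a rise in 5 of 5 mice. In KO cells it was 0.07 (adjusted p = 0.246), with a rise in 6 of 8 mice, and the effects were not shown to differ (interaction -0.13, adjusted p = 0.586). *Jund* had 104 to 127 CPM in WT basal cells and 100.4 to 173 CPM in KO basal cells, and it was called in none of the 5 comparisons. Among 20 tested genes of the other AP-1, ATF, CREB and MAF leucine zipper factors, 2 were called higher and 2 lower with cytokines in WT cells (8.65% and 5.26% of all genes), and 1 higher and 2 lower in KO cells (6.33% and 4.55%), which is near the share over all genes. *Maff*, a small MAF protein, rose by 1.13 in WT and 0.65 in KO cells on the log2 scale. In the genotype comparisons and the interaction edgeR and DESeq2 called 0 of the 20, while 9 had an unadjusted p under 0.05 in edgeR's test under basal conditions (22.4% of all genes), 2 with cytokines (15.0%) and 3 for the interaction (9.13%).

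Other immediate early genes, of which 37 were tested, gave 9 higher and 2 lower calls with cytokines in WT cells (8.65% and 5.26% of all genes) and 4 of each in KO cells (6.33% and 4.55%). Under basal conditions 3 were called higher in KO cells (1.61% of all genes), *Ccn1* (0.83, adjusted p = 1.74e-05), *Ccn2* (0.78, adjusted p = 0.00300) and *Phlda1* (0.91, adjusted p = 2.15e-07). The same 3 genes were called lower for the interaction (0.184% of all genes), at -0.80 (adjusted p = 0.0134), -0.93 (adjusted p = 0.0661) and -0.88 (adjusted p = 0.00184). *Ccn1*, a secreted matricellular protein, had 168 to 239.7 CPM in WT basal cells and 329 to 399 CPM in KO basal cells. These did not overlap, as was so in this direction for 1.91% of all genes. With cytokines *Ccn1* had 319 to 423 CPM in WT and 312 to 531 CPM in KO cells. The call of *Ccn2* for the interaction ended when any 1 of WT replicates 2 to 5 or KO replicates 1, 3, 5 or 6 was left out (adjusted p between 0.109 and 0.188). For this list 34 of 37 genes had a negative interaction, with a median of -0.25 against -0.01 over all genes.

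Upstream, 20 genes listed as feedback regulators of the ERK and other MAP kinase cascades gave 7 higher calls with cytokines in WT cells (8.65% of all genes) and 4 in KO cells (6.33%), led by *Dusp4* (1.74 on the log2 scale in WT and 1.503 in KO cells) and *Dusp10* (1.56 and 1.28). Under basal conditions 2 of them were called higher in KO cells (1.61% of all genes), *Dusp5* (0.68, adjusted p = 0.00173) and *Dusp6* (0.70, adjusted p = 0.00125), both of which encode phosphatases of ERK. With replicate number as a block *Dusp5* was under the limit on the fold change (0.57). Of 28 genes of the MAP kinase cascades and ternary complex factors, 3 were called higher with cytokines in WT cells and 2 in KO cells, *Map3k5* (1.02 and 0.96) and *Elk3* (0.96 and 0.76) in both and *Map2k3* (0.74) in WT cells, which is near the 8.65% and 6.33% of all genes. Downstream, 27 textbook AP-1 target genes gave 12 higher and 1 lower call with cytokines in WT cells (8.65% and 5.26% of all genes) and 11 higher and 2 lower in KO cells (6.33% and 4.55%). The largest rises were those of *Cxcl1* (3.65 in WT and 2.82 in KO cells) and *Mmp9* (3.57 and 2.87). Under basal conditions 6 targets were called higher in KO cells (1.61% of all genes), *Cxcl1* (1.07), *Plaur* (1.05), *Ccl2* (0.80), *Hbegf* (0.79), *Ptgs2* (0.65) and *Il1a* (0.62). The paper had reported *Cxcl1*, *Ccl2* and *Il1a* as higher in basal KO cells from these same libraries. The list was chosen with earlier results known, so its share beside that of all genes is a description and no test. With replicate number as a block *Ptgs2* (0.56) and *Il1a* (0.52) were under the limit on the fold change, and so was *Il1a* without WT replicate 1 (0.56) or 3 (0.54), KO replicate 6 (0.56) or 7 (0.56), or both KO replicates 7 and 8 (0.58). Between genotypes with cytokines 0 of the 27 were called. With replicate number as a block 4 were called (595 of all genes), and 3 each without WT replicate 1 (558), KO replicate 8 (291) or KO replicates 7 and 8 (345). With only the groups compared, or without KO replicate 7, 1 was called. The interaction was called as lower for 3 targets (0.184% of all genes), *Plaur* (-1.01, adjusted p = 0.0301), *Cxcl1* (-0.83, adjusted p = 0.0484) and *Hbegf* (-0.76, adjusted p = 0.0519). These calls ended without single mice: *Plaur* without WT replicate 2 or 4, *Cxcl1* without WT replicate 4 or 5 or KO replicate 3, 5 or 6, and *Hbegf* without WT replicate 3 or 4 or KO replicate 5 or 6 (adjusted p between 0.104 and 0.2497).

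Genes of heat shock and of cell dissociation stress were followed because primary cells can induce early genes during isolation. Of 15 such genes 2 were called lower with cytokines in each genotype (5.26% of all genes in WT and 4.55% in KO cells), *Dnajb4* (-0.99 in WT and -0.76 in KO cells) and *Hspb8* (-0.84 and -0.89). Between genotypes and for the interaction edgeR and DESeq2 called 0 of 15, while 6 were higher in KO cells at an unadjusted p under 0.05 in edgeR's test under basal conditions (11.7% of all genes), 6 with cytokines (6.67%), and 3 passed it for the interaction (9.13%). Their summed level was 7416 to 8061 CPM in WT basal cells and 8140 to 8675 CPM in KO basal cells, so that every KO library lay above every WT library although no single gene passed both thresholds. With cytokines the sums were 7003 to 7866 CPM in WT and 7815 to 8489 CPM in KO cells. KO replicates 7 (7867 CPM) and 8 (7815 CPM) had the lowest sums of the KO libraries with cytokines, while their *Egr1* and *Fos* levels were the highest. The part of cell stress in the levels of the members was not tested.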

How the data were processed

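Stranded paired-end mRNA libraries from 26 cultures of 13 mice were aligned by the authors to mm39 with STAR 2.7.10b and counted per gene with featureCounts 2.0.6, and these counts were deposited without normalization. A table of log2 normalized counts, which the authors also deposited, was used for 1 alternative. It differed from log2 values recomputed from the counts by over 0.01 for 50 genes, of which 0 were members. Of counts from 1 to 9, 82.0% were even, against 53.1% of counts with 4 or more digits, and the source of this was not established. No column lacked a sample.

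Genes with a mean count over 10 after scaling with DESeq2 size factors were tested in R 4.3.3 with edgeR 4.0.16 (TMM, glmQLFit and glmQLFTest, 1 model of the 4 groups). A gene was called in this quasi-likelihood test when it changed by more than 1.5 times and its p, adjusted after Benjamini and Hochberg over all genes tested, was under 0.1. The model has no term for the mouse. Both libraries of a mouse come from the same animal, and r between their residuals after group means were subtracted was between 0.0005 and 0.254, with a median of 0.106. Alternatives were DESeq2 1.42.0 (its size factors, and its Wald test), limma 3.58.1 with trend on the log2 table, no filter, filterByExpr, only the groups compared, an adjusted p under 0.05, no limit on the fold change, a replicate block, prior counts of 0.25 and 5 in place of 1 for log2 CPM, and each mouse left out. Leaving out KO replicates 7 and 8 together, and r with marker sums, were chosen after seeing the data.

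Members and lists were chosen with earlier results of these data known. Their shares called, set beside those of all genes, are therefore descriptions and no tests. Genes were named by this rule: all members, *Pla2g4d*, *Fosl2* and *Jund*, at most 6 called genes of each list and comparison by size of the log2 fold change, up to 3 genes outside the members most like each member by Pearson r over 26 libraries with group means subtracted, and the most abundant marker of each cell type with the markers at 0. Named outside this rule are *Krt14*, genes that overlap members, and *Pmel*, *Dct*, *Tyr* and *Mlana*, which were not called between genotypes with cytokines. The count of reads bears on each value through counting error, which no interval here separates from the spread between mice. Counting used GENCODE vM31, while gene positions and exon lengths here are from vM39. Motifs were matched on both strands of the 300-base windows. The NF-kB pattern was changed to a single pattern of 10 letters after the matches of a first one that mixed lengths of 9 and 10 had been seen, and the 4 members with a match were the same.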

Additional observations from a re-analysis of the deposited data

Results flagged for a closer look

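In WT basal cells *Fos* had 105 CPM in replicate 5, far above the other 4 replicates, with a gap on the log2 CPM scale to the nearest of them of 0.834 of the range of the group, where Dixon's limit for 5 samples is 0.71. Of 40 groups of member values examined in this way 1 passed its limit, and chance passes about 1 in 20. This library is also the 1 WT basal library that reached the range of the KO basal libraries for *Fos*.

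The cytokine effect in KO cells minus that in WT cells had an adjusted p under 0.1 in edgeR's quasi-likelihood test for 3 members. It was -1.29 on the log2 scale for *Egr1* (adjusted p = 0.0717), with a change upward in 5 of 5 WT mice and downward in 8 of 8 KO mice. For *Jun* it was -0.52 (adjusted p = 0.0672), with a change downward in 8 of 8 KO mice, and for *Atf3* it was -0.55 (adjusted p = 0.0771), likewise downward in 8 of 8 KO mice. The values of *Jun* and *Atf3* were under a fold change of 1.5. What sets KO replicates 7 and 8 apart from the other KO mice was not tested.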

How the results depend on the processing

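Of the log2 values under the alternatives, 3069 kept their direction and call, 25 gained a call, 85 lost one and 35 turned in sign. With no limit on the fold change 6 members were called for cytokines in WT cells (3 otherwise), 8 in KO cells (5 otherwise), 5 between genotypes under basal conditions (3 otherwise) and 3 for the interaction (1 otherwise), where 6221, 6048, 2303 and 166 of all 16893 genes were called. Between genotypes with cytokines limma called 0 members, where edgeR called 1. For the interaction 0 members were called at an adjusted p under 0.05 (21 of all genes), and DESeq2 called 2 (62 of all genes). With single mice left out, 0 to 2 members were called between genotypes with cytokines and 0 to 2 for the interaction. Of all genes these fits called 44 (without WT replicate 3) to 558 (without WT replicate 1) between genotypes with cytokines, and 119 with all mice. For the interaction they called 18 (without WT replicate 4) to 92 (without WT replicate 1), and 37 with all mice. Under basal conditions 824 genes differed between genotypes without WT replicate 1, and 453 with all mice.

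With a replicate block 3 members were called for cytokines in WT cells, 4 in KO cells, 2 between genotypes under basal conditions, 3 with cytokines and 3 for the interaction. Over all genes the block called 2459 for cytokines in WT and 1899 in KO cells, where the model without it called 2349 and 1837, and 80 for the interaction, where it called 37. It called 595 between genotypes with cytokines, where the model without it called 119 (114 in both), and 744 under basal conditions, where it called 453 (403 in both). For genotype the block joins different mice of the same replicate number and leaves KO replicates 6 to 8 without a WT partner; the cause was not tested. Without KO replicates 7 and 8, an alternative added after the data were seen, 3 members were called between genotypes with cytokines and 4 for the interaction, and the median r between members was 0.28.

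All values that turned in sign were far from a call. The cytokine effect on *Atf3* in WT cells was 0.000985, and -0.00106 with DESeq2 size factors and in DESeq2's test, -0.00518 with filterByExpr, -0.00208 with only the groups compared, -0.00853 without KO replicates 7 and 8 and -0.0805 to 0.161 with single mice left out. Under basal conditions the genotype effect on *Egr2* was -0.00992 with the block, -0.0176 without KO replicates 7 and 8 and -0.00473 to 0.233 with single mice left out. For *Fosb* it was -0.0768 with limma, -0.255 with the block, -0.197 without KO replicates 7 and 8 and -0.211 to 0.138 with single mice left out. With cytokines the genotype effect on *Fosl1* was -0.0355 with the block and -0.00718 to 0.245 with single mice left out. For *Ier3* it was -0.0877 to 0.0445 with single mice left out, and for *Jund* -0.0459 to 0.0241, and 0.0128 without KO replicates 7 and 8. DESeq2's test gave no adjusted p for the genotype effect on *Fosb* with cytokines, so its value there was left out.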
